A study of Homo sapiens with 4 samples.

Results

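The genes described here are ATF4 and 8 genes of the integrated stress response: DDIT3, TRIB3, ASNS, CHAC1, ATF3, ATF5, DDIT4 and PPP1R15A. They were taken by gene symbol, and they are 9 of the 22187 genes listed and 9 of the 14870 genes tested. RNA was sequenced from KMS28BM and KMS18, human multiple myeloma cell lines that carry t(4;14), which brings NSD2 and FGFR3 next to immunoglobulin heavy chain enhancers. The 4 groups, each of 1 library, are KMS28BM with PKCα (the PRKCA product) stably knocked down, KMS28BM with a luciferase control (Luc), KMS18 with PKCα knocked down and KMS18 with luciferase. The labels write K28BM and K18, give bone marrow as the tissue and plasma cell as the cell type, while the sources used here give neither the knockdown sequence nor whether the cells are clones. The comparisons are knockdown against control, KMS28BM against KMS18, and the knockdown difference of 1 line against that of the other.

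The integrated stress response joins several kinds of cell stress at a single step of translation. The kinases EIF2AK1 (HRI, haem and mitochondrial stress), EIF2AK2 (PKR, double-stranded RNA), EIF2AK3 (PERK, unfolded protein in the endoplasmic reticulum, ER) and EIF2AK4 (GCN2, lack of amino acids) phosphorylate the initiation factor eIF2. General translation then falls, while ATF4 mRNA is translated more, because upstream reading frames in it otherwise keep ribosomes from the ATF4 start. ATF4 protein is a bZIP transcription factor that raises genes for amino acid uptake, amino acid synthesis and tRNA charging, and under lasting stress genes of cell death. Antibody-secreting cells, from which myeloma arises, run a heavy ER load. The libraries measure mRNA, so the amount of ATF4 protein and the state of eIF2 were not measured.

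The libraries held 37940949 to 39507281 expected counts, which are the read counts the authors' counting program estimated per gene, and 11100 to 11591 genes reached 1 FPKM (fragments per kilobase of listed gene length, scaled to library size) in each. PRKCA, the knockdown target, passed the edgeR test as lower (-2.34 in log2 units, SE 0.11, adjusted p = 0.00153). It was at 2.43 FPKM in the KMS28BM knockdown against 10.9 FPKM in its control, and at 1.47 FPKM in the KMS18 knockdown against 7.46 FPKM in its control. All 8 plasma cell markers were found at 4.99 FPKM or more in every library. Markers of T cells summed to 3.44 FPKM in the KMS28BM knockdown against 1.16 FPKM in its control, and to 21.5 FPKM in the KMS18 knockdown against 7.71 FPKM in its control, with CD3E as the 1 of 5 that reached 1 FPKM. Neutrophil markers summed to 0.07 FPKM in each KMS28BM library, to 6.45 FPKM in the KMS18 knockdown and to 1.81 FPKM in the KMS18 control, with S100A9 as the 1 of 5 that reached 1 FPKM and ELANE and S100A8 at 0 in all libraries. Monocyte and erythroid markers stayed below 1 FPKM, and of 6 stromal and endothelial markers PECAM1 alone passed it. The part of these genes in the results was not tested. Differences inside 1 line rest on a single pair of libraries and have no test. The tests with line and construct as terms measure spread by how far the lines' knockdown differences disagree, weighed with other genes. This holds for the knockdown and the line p-values alike, since cultures were not repeated. In bulk RNA, fewer cells that express a gene and less RNA per cell cannot be told apart.

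Some members carry known binding elements next to their start. The C/EBP-ATF response element and the cAMP response element are shown because ATF4 and its partners are known to bind them. The E-box is shown as a further motif, not as one that they bind. RefSeq promoter windows, each from 250 bases before to 50 after a start (GRCh38.p14), were matched by symbol for all 9 members, with 17 windows for their alternative starts. The C/EBP-ATF response element bound by ATF4 dimers was searched as TGATGNAA on both strands, and it stood in a window of ASNS, ATF3 and CHAC1 and in 3.62% of all 35116 windows. The palindromic cAMP response element TGACGTCA stood in the window of PPP1R15A and in 1.85% of all windows. The E-box CACGTG stood in windows of ATF4 and in 7.26% of all windows. No member held more than 1 of these motifs in its windows, so none overlapped. The pieces run 5′ to 3′ along the gene, end before the start of the RefSeq window's transcript and have the motif in capitals, and those of ATF4, ASNS and CHAC1 lie inside the span of the longest GENCODE gene model. In CHAC1 the capitals are the motif read on the opposite strand.
ATF4 (chr22:39520447-39520512, plus strand, E-box 82 or 85 bases before the start, for 2 RefSeq starts): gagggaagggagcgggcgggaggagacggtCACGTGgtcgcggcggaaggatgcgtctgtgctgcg
ASNS (chr7:97872439-97872506, minus strand, motif 68 bases before the start): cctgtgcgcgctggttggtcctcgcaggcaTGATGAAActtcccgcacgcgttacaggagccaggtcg
CHAC1 (chr15:40953232-40953299, plus strand, 209 bases before the start): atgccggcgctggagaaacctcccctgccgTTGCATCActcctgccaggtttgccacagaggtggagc
ATF3 (chr1:212565186-212565253, plus strand, 191 bases before the start): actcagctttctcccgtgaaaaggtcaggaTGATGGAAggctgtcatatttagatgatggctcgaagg
PPP1R15A (chr19:48872333-48872400, plus strand, 58 bases before the start): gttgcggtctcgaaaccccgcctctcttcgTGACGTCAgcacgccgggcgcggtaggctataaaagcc
The absence of these letters from the windows of DDIT3, TRIB3, ATF5 and DDIT4 says nothing of elements elsewhere in those genes.

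The order of the members by level differed between the lines and was nearly the same in both constructs of a line. In both KMS28BM libraries ATF5 ranked 1, ASNS ranked 2, DDIT4 ranked 3 and ATF4 ranked 4, all between 159.6 and 240.1 FPKM. In KMS18, ATF4 ranked 1 in both libraries, ATF5 ranked 2, ASNS ranked 3 and DDIT4 ranked 4. CHAC1 ranked 5 in both KMS28BM libraries and 9 in both KMS18 libraries. ATF3 ranked 9 in both KMS28BM libraries and 8 in both KMS18 libraries. The ranks of DDIT3, TRIB3 and PPP1R15A, all between 12.7 and 28.4 FPKM, lay between these.

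**Figure D1:**
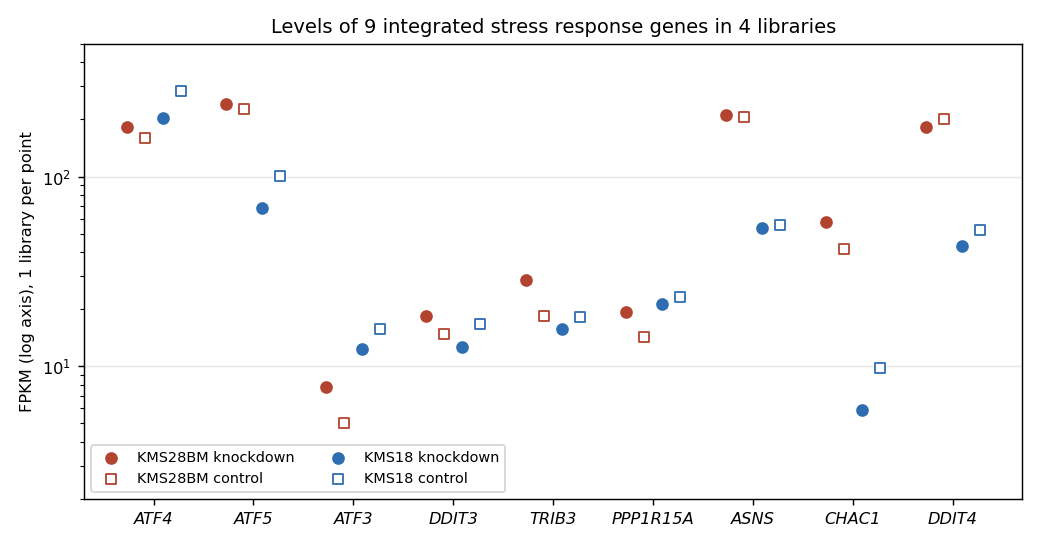
FPKM (log axis) of the 9 members in the 4 libraries, 1 point per library, with filled circles for knockdown, open squares for control, red for KMS28BM and blue for KMS18. ASNS, CHAC1, DDIT4 and ATF5 sit higher in both KMS28BM libraries than in both KMS18 libraries, and ATF4, ATF3 and PPP1R15A sit lower.

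Over both constructs, 4 of the 9 members were higher and 2 were lower in KMS28BM than in KMS18, in edgeR's quasi-likelihood test with Benjamini-Hochberg adjustment over all genes at 0.05. The 4 higher members were CHAC1, DDIT4, ASNS and ATF5, and the 2 lower were ATF3 and PPP1R15A. Of all tested genes, 30.6% were higher and 32.3% lower in the same test, so calls of this kind were common in these data. How many of all genes had no overlap between the lines was not counted, so statements on overlap describe these 4 libraries only. With 1 cell line on each side, a difference tied to the line's origin and one tied to its culture cannot be told apart.

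CHAC1, an enzyme that breaks down glutathione and a strong ATF4 target (chromosome 15, 40952962 to 40956519, plus strand, GRCh38), had the widest gap between the lines. It was at 57.3 FPKM in the KMS28BM knockdown and 41.5 FPKM in the KMS28BM control, against 5.85 FPKM in the KMS18 knockdown and 9.82 FPKM in the KMS18 control. Both KMS28BM libraries lay above both KMS18 libraries, with no overlap. The KMS28BM level was 9.80 times the KMS18 level between knockdown libraries and 4.22 times between control libraries. Over both constructs the log2 difference was 2.59 (SE 0.26, edgeR adjusted p = 0.000182).

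ASNS, asparagine synthetase (chromosome 7, 97852118 to 97872542, minus strand), was at 212 and 207 FPKM in the KMS28BM knockdown and control, against 53.6 and 55.3 FPKM in the KMS18 knockdown and control. The lines did not overlap, and the constructs within each line lay close together. Its log2 difference between lines was 1.82 (SE 0.10, edgeR adjusted p = 1.19e-05). DDIT4 (REDD1), an inhibitor of the growth kinase complex mTORC1 (chromosome 10, 72273920 to 72276036, plus strand), was at 183 and 201 FPKM in the KMS28BM knockdown and control, against 43.3 and 52.2 FPKM in the KMS18 knockdown and control. The DDIT4 log2 difference between lines was 1.93 (SE 0.10, edgeR adjusted p = 9.22e-06), again with no overlap between lines. ATF5, a bZIP factor whose mRNA is translated under stress much as that of ATF4 (chromosome 19, 49928702 to 49933935, plus strand), was at 240.1 and 228 FPKM in the KMS28BM knockdown and control, against 68.2 and 101 FPKM in the KMS18 knockdown and control. All its KMS28BM values were above its KMS18 values, and the log2 difference was 1.43 (SE 0.16, edgeR adjusted p = 0.000258).

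ATF3, a bZIP factor induced by ATF4 and by many other signals (chromosome 1, 212565334 to 212620777, plus strand), went the other way. It was at 7.80 and 5.05 FPKM in the KMS28BM knockdown and control, against 12.4 and 15.8 FPKM in the KMS18 knockdown and control. Both KMS28BM libraries lay below both KMS18 libraries, and the log2 difference was -1.22 (SE 0.22, edgeR adjusted p = 0.00261). PPP1R15A (GADD34), the stress-induced subunit that directs phosphatase 1 to eIF2 and so ends the response (chromosome 19, 48872392 to 48876057, plus strand), was at 19.2 and 14.2 FPKM in the KMS28BM knockdown and control, against 21.4 and 23.3 FPKM in the KMS18 knockdown and control. The lines did not overlap, and the log2 difference was -0.52 (SE 0.14, edgeR adjusted p = 0.0172). That call was lost in edgeR without the construct term (adjusted p = 0.0729), and so without any 1 of the 4 libraries (adjusted p from 0.0628 to 0.316).

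ATF4 itself (chromosome 22, 39519695 to 39522685, plus strand) was at 182 and 159.6 FPKM in the KMS28BM knockdown and control, against 203 and 281 FPKM in the KMS18 knockdown and control. All 4 libraries held it at a high level, and both KMS28BM libraries lay below both KMS18 libraries. The log2 difference between lines was -0.42 (SE 0.16, edgeR adjusted p = 0.0538), which did not pass, while limma on log2(FPKM + 1) called it (adjusted p = 0.0314). The ATF4 length that the authors list per library was 1608.84 and 1605.98 bases in the KMS28BM knockdown and control, against 1449.39 and 1446.54 bases in the KMS18 knockdown and control. A longer listed length gives a lower FPKM for the same count, and 11.9% of 10095 genes had a shift between lines at least as large. GENCODE version 29 lists ATF4 transcripts of 1419, 1910 and 2019 bases.

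DDIT3 (CHOP), the bZIP factor of late and lethal ER stress (chromosome 12, 57516588 to 57521737, minus strand), was at 18.3 and 14.8 FPKM in the KMS28BM knockdown and control, against 12.7 and 16.7 FPKM in the KMS18 knockdown and control. The lines overlapped (log2 difference 0.08, SE 0.19, edgeR adjusted p = 0.734). TRIB3, a pseudokinase induced by ATF4 and CHOP that feeds back on both (chromosome 20, 362835 to 397559, plus strand), was at 28.4 and 18.3 FPKM in the KMS28BM knockdown and control, against 15.7 and 18.1 FPKM in the KMS18 knockdown and control. Its control libraries were nearly equal, and its log2 difference between lines was 0.35 (SE 0.19, edgeR adjusted p = 0.158). Strand was not kept by the kit. DDIT3 shares 355 of its 1307 exonic bases with MARS on the other strand, and ATF5 shares 626 of 2954 with NUP62, so their counts are uncertain. MARS was at 142 and 137 FPKM in the KMS28BM knockdown and control, against 84.1 and 111 FPKM in the KMS18 knockdown and control, and NUP62 was at 79.3 and 62.0 FPKM in the KMS28BM knockdown and control, against 67.5 and 66.5 FPKM in the KMS18 knockdown and control. DDIT4 shares 847 of 2058 exonic bases with DDIT4-AS1 on the other strand, and ASNS shares 1985 of 4455 with AC079781.5, so these counts are uncertain too.

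Over both lines, none of the 9 members passed the knockdown test in edgeR (0 higher and 0 lower), against 3.57% of all tested genes higher and 5.25% lower. DESeq2 and limma also called 0, and at an unadjusted p under 0.05 edgeR had 1, DDIT4 (log2 difference -0.26, SE 0.10, adjusted p = 0.146, lower in 2 of 2 lines). ATF5 had a log2 difference of -0.32 (SE 0.15, adjusted p = 0.243) and ATF4 of -0.21 (SE 0.16, adjusted p = 0.464). The other 6 members had differences from -0.15 to 0.16 and edgeR adjusted p-values from 0.67 to 0.992. The members' standard errors ran from 0.10 to 0.25 with a median of 0.16, beside a median of 0.14 over all tested genes. CHAC1 had the largest standard error (difference -0.15, SE 0.25) and opposite differences in the lines. No gene of the 14870 passed the knockdown test in edgeR without the line term, so each knockdown call named here rests on that term.

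The lines moved apart within that average. In KMS28BM, 8 of 9 members were higher in the knockdown than in the control on log2(FPKM + 1), and DDIT4 was lower, beside 56.8% of the 10599 genes with 1 FPKM or more in a library of each line that were higher there. In KMS18, all 9 were lower in the knockdown, beside 46.6% of those genes. Thus 8 of 9 members were higher in the KMS28BM knockdown and lower in the KMS18 knockdown, a pattern held by 15.1% of the 10599 genes. The members were chosen with earlier results of these data known, so the contrast with that share is a description only. On counts scaled by TMM (edgeR's trimmed mean of M values) the number was 7, since ATF5 in KMS28BM was then at -0.01, and with median of ratios scaling it was 8. The difference between lines has no residual degree of freedom and was not tested.

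TRIB3 had the largest difference in KMS28BM, where the knockdown stood at 155% of its control, against 86.4% in KMS18. On TMM-scaled counts the log2 difference was 0.58 in KMS28BM (95% Poisson interval 0.49 to 0.67) and -0.28 in KMS18 (-0.38 to -0.17). Such intervals cover counting error only. ATF3 stood at 154% of its control in KMS28BM and at 78.4% in KMS18, with log2 differences of 0.50 (0.31 to 0.69) and -0.45 (-0.58 to -0.32). CHAC1 stood at 138% of its control in KMS28BM and at 59.6% in KMS18, with log2 differences of 0.39 (0.32 to 0.47) and -0.81 (-1.01 to -0.61). PPP1R15A stood at 135% and 91.9% of its control in KMS28BM and KMS18. For these 4 genes the order of the libraries turned round between lines, with the knockdown on top in KMS28BM and the control on top in KMS18.

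DDIT3 stood at 124% of its control in KMS28BM and 75.7% in KMS18, and MARS, the gene that overlaps it, stood at 104% and 75.7%. The part of MARS reads in the DDIT3 values was not tested. ATF4 stood at 114% of its control in KMS28BM and 72.1% in KMS18, with TMM-scaled log2 differences of 0.12 (95% Poisson interval 0.08 to 0.16) and -0.53 (-0.57 to -0.50). ATF5 stood at 105% in KMS28BM, where its interval on counts (-0.04 to 0.02) included 0, and at 67.5% in KMS18. ASNS stood at 102% in KMS28BM, where its interval (-0.03 to 0.04) also included 0, and at 97.1% in KMS18. DDIT4 stood below its control in both lines, at 91.4% in KMS28BM and 82.9% in KMS18.

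In KMS28BM the counting interval lay above 0 for 6 members, below 0 for 1 and across 0 for 2. In KMS18 it lay below 0 for all 9. At this depth 33.5% of genes in KMS28BM had an interval above 0, and 35.6% in KMS18 had one below 0, so an interval off 0 is no rare event. No member had a log2(FPKM + 1) difference of 1 or more in size within a line, which 1.99% of genes reached in KMS28BM and 1.46% in KMS18.

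**Figure D2:**
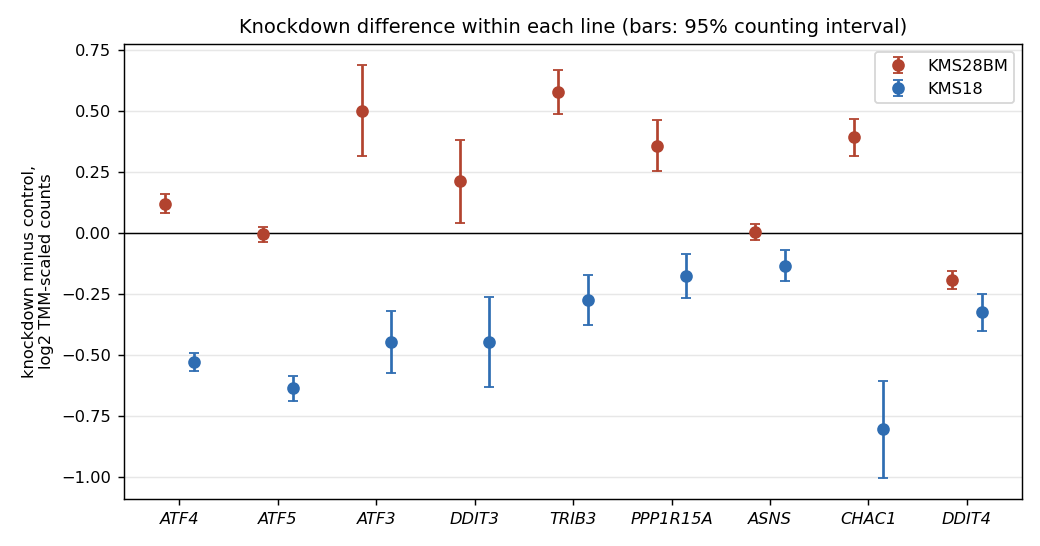
Knockdown minus control for each member on the log2 scale of TMM-scaled counts, 1 pair of libraries per line, red for KMS28BM and blue for KMS18, with bars for the 95% Poisson interval (counting error only). All 9 KMS18 points lie below 0, from -0.14 for ASNS to -0.81 for CHAC1, and every KMS28BM point lies above the KMS18 point of the same gene.

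The gap between the lines' knockdown differences was positive for all 9 members, as it was for 54.8% of the 10599 genes. On TMM-scaled counts it was 1.20 for CHAC1 (95% counting interval 0.99 to 1.41), 0.95 for ATF3 (0.73 to 1.17) and 0.85 for TRIB3 (0.72 to 0.99). DDIT3, ATF4, ATF5 and PPP1R15A had gaps from 0.54 to 0.66, and ASNS and DDIT4 had 0.14 and 0.13. On log2(FPKM + 1), 7 of 9 members had a gap of at least 0.5, a limit chosen after the values were seen, against 4.99% of all genes. Put by construct, the knockdown libraries of the lines were closer than the control libraries for ATF4, ATF3 and PPP1R15A, and further apart for the other 6 members, by little for ASNS and DDIT4. ATF4 in KMS28BM was at 0.90 times its KMS18 level between knockdown libraries and at 0.57 times between control libraries.

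**Figure D3:**
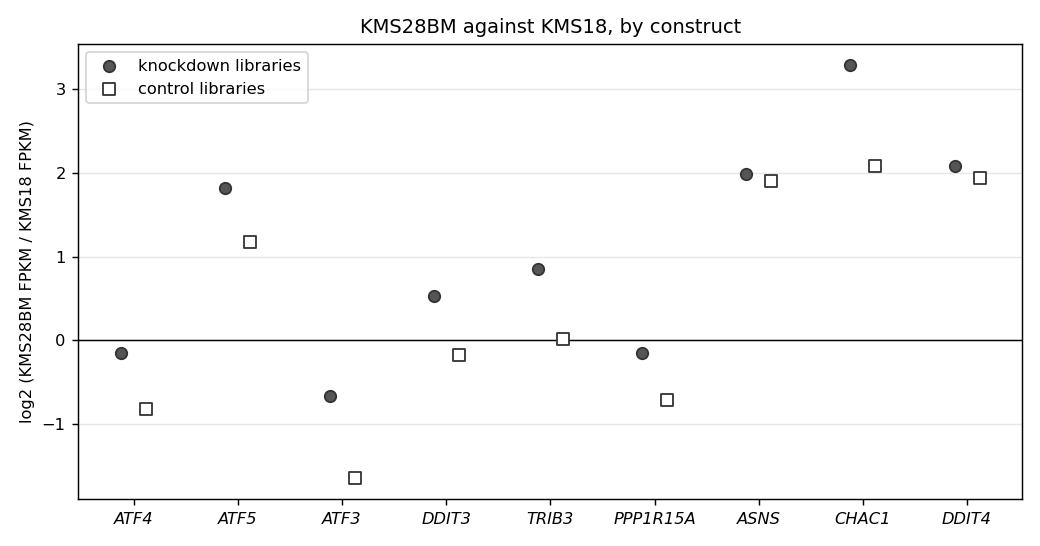
Log2 ratio of FPKM in KMS28BM over KMS18 for each member, with filled circles for the knockdown libraries and open squares for the control libraries, 1 pair of libraries per point. The circle lies above the square for all 9 members, by most for CHAC1, TRIB3 and ATF3, the members with the largest gaps.

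Upstream of ATF4, none of the 4 eIF2 kinases passed the knockdown test. EIF2AK3 was at 37.1 and 37.0 FPKM in the KMS28BM knockdown and control and at 55.1 and 49.0 FPKM in the KMS18 knockdown and control. EIF2AK4 was at 9.23 and 9.19 FPKM in KMS28BM and at 6.08 and 4.88 FPKM in KMS18, again knockdown before control. EIF2AK1 lay between 32.8 and 45.0 FPKM and EIF2AK2 between 11.6 and 12.9 FPKM in all libraries. Their adjusted p-values in edgeR ran from 0.563 to 0.808. All 4 differed between lines, EIF2AK1 and EIF2AK4 being higher in KMS28BM (log2 differences 0.30 and 0.71) and EIF2AK2 and EIF2AK3 lower (-0.43 and -0.57), with edgeR adjusted p from 0.00191 to 0.0339. Such line calls were common, at 30.6% of all tested genes higher and 32.3% lower.

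Of 12 eIF2 kinases and regulators, 0 rose and 2 fell over both lines, beside 3.57% and 5.25% of all tested genes. The 2 that fell were DNAJC3 (p58IPK), an ER co-chaperone and inhibitor of PERK and PKR (log2 difference -0.67, SE 0.10, edgeR adjusted p = 0.0117), and OMA1, the mitochondrial protease that starts signalling to HRI (-0.68, SE 0.15, edgeR adjusted p = 0.0409). Each of them was lower in the knockdown of both lines. The OMA1 call was lost in DESeq2 (adjusted p = 0.113) and in edgeR with no filter on low counts (adjusted p = 0.0879). DNAJC3 was at 33.1 and 52.98 FPKM in the KMS28BM knockdown and control, against 12.8 and 19.2 FPKM in the KMS18 knockdown and control, and it was higher in KMS28BM (1.34, SE 0.10, edgeR adjusted p = 3.8e-05). PRKRA, an activator of PKR, was lower in KMS28BM (-0.91, SE 0.11, edgeR adjusted p = 0.000429).

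Among 15 genes for eIF2, its exchange factor eIF2B and its phosphatases, 0 passed the edgeR knockdown test. In KMS28BM, 5 were higher and 5 lower than in KMS18, beside 30.6% and 32.3% of all tested genes. The eIF2B subunits EIF2B2 (log2 difference 0.97, SE 0.11, edgeR adjusted p = 0.000271) and EIF2B4 (0.95, SE 0.11, edgeR adjusted p = 0.000282) led the higher ones. PPP1R15B, the constitutive partner of PPP1R15A, was at 27.4 and 24.6 FPKM in the KMS28BM knockdown and control, against 38.9 and 47.2 FPKM in the KMS18 knockdown and control. Of 14 dimer partners and other bZIP factors, 13 were tested and 0 passed for the knockdown. CEBPA (6.22, SE 0.55, edgeR adjusted p = 9.61e-05) and JDP2 (3.97, SE 0.33, edgeR adjusted p = 7.23e-05) were the 2 named as higher in KMS28BM. CEBPA reached 1.32 FPKM at most, with 2 counts or fewer in each KMS18 library. In this list, 10 genes had 1 FPKM or more in a library of each line. The gap between the lines' knockdown differences was positive for 7 of the 10 and at least 0.5 for 4, beside 54.8% and 4.99% of the 10599 genes. The knockdown was higher in KMS28BM and lower in KMS18 for 6 of them, beside 15.1% of the 10599 genes.

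The known targets of ATF4, in lists also chosen with earlier results of these data known, were then read by function. Of 10 measured amino acid transporters, 5 fell over both lines and 0 rose, beside 5.25% and 3.57% of all tested genes. SLC7A5, the large neutral amino acid transporter, was at 149.97 and 311 FPKM in the KMS28BM knockdown and control, against 71.9 and 210.2 FPKM in the KMS18 knockdown and control (log2 difference -1.37, SE 0.14, edgeR adjusted p = 0.0056). SLC7A11, the cystine importer (-0.98, SE 0.16), SLC3A2, the partner chain of both (-0.69, SE 0.11), and SLC38A1, a glutamine transporter (-0.62, SE 0.11), also fell, with edgeR adjusted p from 0.0153 to 0.0221. With no filter on low counts SLC7A5 alone of the 5 kept its call, and these 3 had edgeR adjusted p from 0.0544 to 0.0647. SLC43A1, another neutral amino acid transporter, was higher in KMS28BM (0.89, SE 0.09, edgeR adjusted p = 0.000212), as was SLC7A11 (2.17, SE 0.16, edgeR adjusted p = 4.25e-05). The list's median on log2(FPKM + 1) was -0.21 in KMS28BM and -0.62 in KMS18, beside 0.05 and 0.03 over all 10599 genes. All 10 had a higher difference in KMS28BM than in KMS18, beside 54.8% of the 10599 genes. Among them was SLC6A9, a glycine transporter, at 62.0 and 16.4 FPKM in the KMS28BM knockdown and control, against 9.22 and 7.58 FPKM in the KMS18 knockdown and control.

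Of 13 enzymes of amino acid and one-carbon synthesis, 2 fell and 0 rose over both lines, beside 5.25% and 3.57% of all tested genes. The 2 that fell were ASS1, argininosuccinate synthase (-0.66, SE 0.10, edgeR adjusted p = 0.0131), and MTHFD2, a mitochondrial folate enzyme (-0.64, SE 0.13, edgeR adjusted p = 0.034). The MTHFD2 call was lost with no filter on low counts (edgeR adjusted p = 0.0966). The list's median difference was 0.02 in KMS28BM and -0.45 in KMS18, where 12 of 13 were lower, beside 46.6% of all 10599 genes. The KMS28BM difference was the higher one for 12 of 13, beside 54.8% of the 10599 genes. Between lines, 12 of 13 were higher in KMS28BM and 0 lower, beside 30.6% and 32.3% of all tested genes. They were led by PSAT1, a serine synthesis enzyme (2.22, SE 0.16, edgeR adjusted p = 4.09e-05), and ASS1 (2.17, SE 0.10, edgeR adjusted p = 6.06e-06).

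Of 13 genes for tRNA charging and export, 0 passed the edgeR knockdown test over both lines. Their medians were 0.07 in KMS28BM and -0.30 in KMS18. The KMS28BM difference was the higher one for 13 of 13, beside 54.8% of the 10599 genes, although only 2 had a gap of at least 0.5, beside 4.99%. GARS, the glycyl-tRNA synthetase, was at 276 and 232 FPKM in the KMS28BM knockdown and control, against 159.8 and 224 FPKM in the KMS18 knockdown and control. It was named for this gap after its values were seen. WARS (1.11, SE 0.12) and LARS (0.67, SE 0.09) were higher in KMS28BM over both constructs (edgeR adjusted p = 0.000201 and 0.000818). The LARS call was lost with any 1 library left out and no construct term (edgeR adjusted p from 0.0584 to 0.0793).

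Among 24 other ATF4 and CHOP targets, 23 were tested, 2 rose and 3 fell, beside 3.57% and 5.25% of all tested genes. The 2 that rose promote cell death: TNFRSF10B (DR5), a death receptor (0.81, SE 0.13, edgeR adjusted p = 0.017), and BCL2L11 (BIM), a BH3-only protein (0.71, SE 0.10, edgeR adjusted p = 0.0125). TNFRSF10B was at 9.04 and 4.51 FPKM in the KMS28BM knockdown and control, and at 7.40 and 4.65 FPKM in the KMS18 knockdown and control. Both knockdown libraries lay above both control libraries for each gene, and how many of all genes did so was not counted. DDIT3 mRNA was higher in 1 knockdown and lower in the other. Its product is known to act on both genes, and its part in their rise was not tested. The 3 that fell were ERO1A, the ER oxidase (-0.83, SE 0.09, edgeR adjusted p = 0.00688), HERPUD1, an ER degradation factor (-0.52, SE 0.10, edgeR adjusted p = 0.0268), and CCPG1, an ER autophagy receptor (-0.47, SE 0.10, edgeR adjusted p = 0.0329). With no filter on low counts only BCL2L11 and ERO1A of these 5 kept their calls, and TNFRSF10B, HERPUD1 and CCPG1 had edgeR adjusted p of 0.0613, 0.0691 and 0.0818. CCPG1 was also lost in limma (adjusted p = 0.0686). STC2, a secreted glycoprotein, was higher in KMS28BM (3.16, SE 0.16, edgeR adjusted p = 9.2e-06), and SQSTM1 (p62), an autophagy receptor, was lower (-1.60, SE 0.10, edgeR adjusted p = 2.54e-05). GDF15 and NUPR1, stress outputs in many cell types, stayed below 1 FPKM in all libraries.

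The other branches of the ER stress response were lower in the knockdown of both lines. Of 12 genes of the IRE1 and ATF6 branches, 9 fell over both lines and 0 rose, beside 5.25% and 3.57% of all tested genes. All 12 were lower in the knockdown of each line, as 31.3% of all 10599 genes were. Of the 9 calls, 4 remained in edgeR with no filter on low counts (XBP1, PDIA4, MANF and HSPA5) and 6 in limma. The medians were -0.49 in KMS28BM and -0.40 in KMS18. XBP1, the factor activated by IRE1 and also 1 of the plasma cell markers, was at 265 and 472 FPKM in the KMS28BM knockdown and control, against 196 and 359.9 FPKM in the KMS18 knockdown and control (log2 difference -0.90, SE 0.10, edgeR adjusted p = 0.00671). PDIA4 (-0.85, SE 0.10), MANF (-0.71, SE 0.10) and HSPA5 (-0.69, SE 0.11), which serve folding in the ER, also fell, with edgeR adjusted p from 0.00891 to 0.0144. SEL1L, of ER-associated degradation (2.91, SE 0.11, edgeR adjusted p = 2.19e-06), and HYOU1, an ER chaperone (1.75, SE 0.11, edgeR adjusted p = 2.05e-05), were higher in KMS28BM. The gap between lines was positive for 4 of these 12 genes, beside 54.8% of the 10599 genes and 9 of 9 integrated stress response genes. This gap was not tested.

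**Figure D4:**
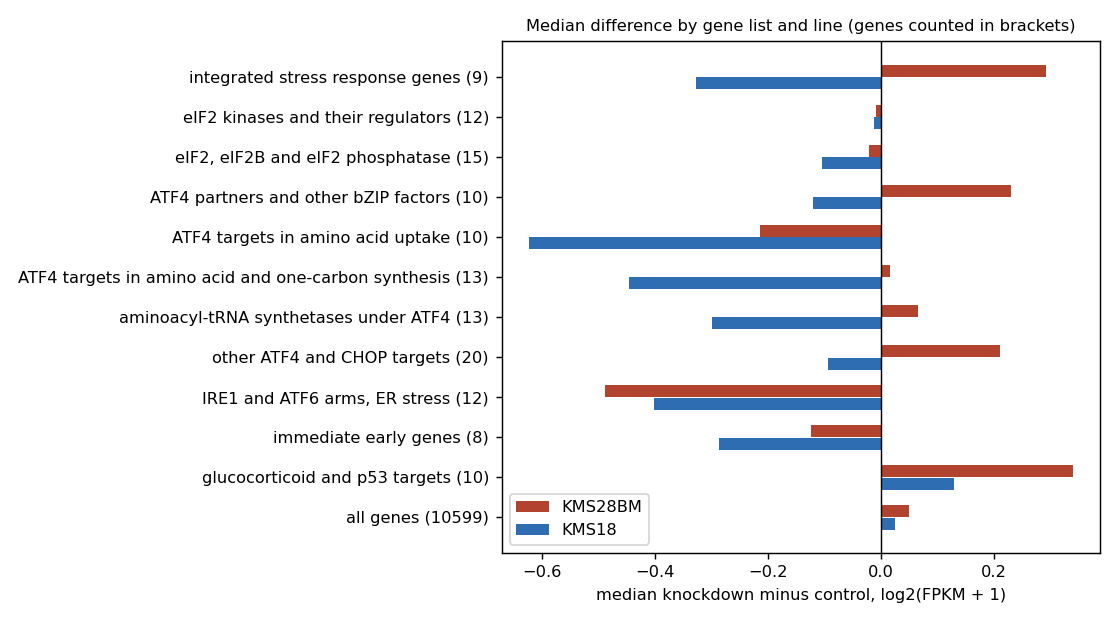
Median knockdown minus control on log2(FPKM + 1) for each gene list, with red bars for KMS28BM and blue bars for KMS18 and in brackets the number of genes with 1 FPKM or more in a library of each line. The integrated stress response genes have medians of 0.29 in KMS28BM and -0.33 in KMS18, while the IRE1 and ATF6 branches are below 0 in both lines.

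Lists that share inputs with single members were set beside them. Of 15 immediate early genes, which like ATF3 and PPP1R15A can rise within minutes of many stimuli, 14 were tested. Of these, 2 fell, beside 5.25% of all tested genes, namely JUNB (-0.67, SE 0.11, edgeR adjusted p = 0.0183) and MCL1 (-0.55, SE 0.10, edgeR adjusted p = 0.0205). Both calls were lost with no filter on low counts (edgeR adjusted p = 0.0624 for JUNB and 0.0586 for MCL1). FOS, FOSB, EGR1 and EGR3 stayed below 1 FPKM in all libraries. Of the immediate early genes, 8 had 1 FPKM or more in a library of each line. The gap between the lines' knockdown differences was positive for all 8, and at least 0.5 for 3, beside 54.8% and 4.99% of the 10599 genes. ZFP36 was lower in KMS28BM than in KMS18 (-2.23, SE 0.15, edgeR adjusted p = 3.04e-05), as was MCL1 (-1.30, SE 0.10, edgeR adjusted p = 4.54e-05). Of 10 glucocorticoid and p53 targets, 2 fell, beside 5.25% of all tested genes. The 2 were FKBP5 (-0.87, SE 0.10, edgeR adjusted p = 0.00676) and NFKBIA (-0.65, SE 0.10, edgeR adjusted p = 0.015), of which NFKBIA was lost with no filter on low counts (edgeR adjusted p = 0.0525). TSC22D3 (GILZ), a glucocorticoid target like DDIT4, was higher in KMS28BM (1.85, SE 0.11, edgeR adjusted p = 1.92e-05), and CDKN1A, a p53 target, was lower (-3.48, SE 0.16, edgeR adjusted p = 5.35e-06). The other glucocorticoid targets in the list did not follow TSC22D3. SGK1 (-2.17, SE 0.17, edgeR adjusted p = 5.88e-05) and NFKBIA (-0.64, SE 0.10, edgeR adjusted p = 0.00156) were lower in KMS28BM. FKBP5 (-0.22, SE 0.10, edgeR adjusted p = 0.084) and PER1 (-0.06, SE 0.15, edgeR adjusted p = 0.733) did not pass.

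Among 8648 genes at a mean of 5 FPKM or more, the profile nearest to the median centred profile of the 9 members over the 4 libraries was that of SLC7A1, the cationic amino acid transporter (Euclidean distance 0.05 on log2(FPKM + 1)). SLC7A1 was at 43.9 and 29.8 FPKM in the KMS28BM knockdown and control, and at 25.7 and 28.4 FPKM in the KMS18 knockdown and control. SRGAP2D (distance 0.06) and B3GAT3 (0.12) followed, and SRGAP2D belongs to a family of near-identical copies, so its counts are uncertain. Nearest to ATF4 were C16orf87 (0.10), TRAIP (0.13) and FAM58A (0.14). With 4 libraries such distances are a description.

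The letters AGTCTAA and CAGTCTA, which both stand in transcripts of PRKCA, were looked for in the GENCODE version 29 transcripts of the members. AGTCTAA stood in transcripts of DDIT3 alone among the 9, against 17.2% of 13422 tested genes with transcripts, and CAGTCTA in 0 of 9, against 18.9%. Whole transcripts were searched on the sense strand, and the shorter AGTCTA, which both hold, stood in ATF4 and DDIT3, against 46.6% of these genes.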

How the data were processed

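RNA was measured in 4 libraries made, per the labels' protocols, from 100 ng of total RNA with the TruSeq RNA version 2 kit, which does not keep strand. The authors deposited an expected count (an estimated count, not always whole), an FPKM value and a length for each gene, per the file headers. Tools listed in the submitters' processing notes are HISAT, Bowtie2 and STAR, with hg19 and GRCh37 as builds and no roles stated. For the program that counted reads, the name was not given in the sources used here. Gene positions, for which the tables have no column, come from GENCODE version 29 (GRCh38), matched by identifier without its version.

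Counts and FPKM were summed over rows that share a symbol, and each member had 1 row. Expected counts were rounded and tested in edgeR 4.0.16 (R 4.3.3) with its quasi-likelihood test, TMM scaling, the default filter (minimum count 10) and Benjamini-Hochberg adjustment over 14870 genes. Line and construct were the terms, since each line gave 1 library per construct, so libraries are paired by line. The residual degrees of freedom were 1 and the prior degrees of freedom 5.85. Limma 3.58.1 and DESeq2 1.42.0 were alternatives. The tests were also run on simulated counts in which each changed gene moved alike in both lines. Such counts cannot show how the tests behave for genes whose lines disagree, as most members did here. Differences within a line are on log2(FPKM + 1), which understates changes of low genes, or on TMM-scaled counts with exact 95% Poisson intervals. Members and lists were chosen with earlier results of these data known. The text names all members, the eIF2 kinases, up to 4 genes per list by p for the knockdown and 2 for the line, and profile neighbours. GARS, SLC6A9, PPP1R15B, CCPG1, SGK1, PER1 and genes named as below 1 FPKM were chosen after their values were seen.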

Additional observations from a re-analysis of the deposited data

Results flagged for a closer look

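ATF4, DDIT3, TRIB3, ASNS, CHAC1, ATF3, ATF5 and PPP1R15A were higher in the KMS28BM knockdown and lower in the KMS18 knockdown, each beside its own control, on log2(FPKM + 1). With 1 library per line and construct, this difference was not tested. The KMS28BM difference minus the KMS18 difference was 1.12 for CHAC1, 0.87 for ATF3, 0.81 for TRIB3, 0.67 for DDIT3, 0.66 for ATF4, 0.64 for ATF5, 0.53 for PPP1R15A and 0.076 for ASNS. On TMM-scaled counts ATF5 was at -0.01 in KMS28BM and so lower in both lines. DDIT4 was lower in both lines.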

How the results depend on the processing

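The call of 0 members for the knockdown held under all 10 alternatives, but those without the block called 0 genes of any kind and so could not show otherwise. The members called between lines numbered 5 to 7. The libraries are paired by line. With no replicate block, the knockdown calls over all genes were 0, against 1312 (215 at an unadjusted p under 0.05), members between lines were 5, and with each library also left out in turn the knockdown made 0 calls over all genes each time (30 to 46 at an unadjusted p under 0.05), and the line comparison 4844 to 5061 (the others 5012 and 5029), against 9351. These fits assume that a lone library varies like the others. With no filter on low counts there were 367 knockdown calls, where more genes are tested. Limma on log2(FPKM + 1) gave 542 higher and 487 lower genes, beside 531 and 781. With a library left out and no block, the knockdown difference, never called, took both signs for all 9 members: CHAC1 (-2.14 to 1.54), DDIT4 (-1.55 to 0.98), ASNS (-1.27 to 1.09), ATF5 (-1.31 to 0.47), ATF3 (-0.79 to 0.93), ATF4 (-0.59 to 0.16), TRIB3 (-0.25 to 0.53), PPP1R15A (-0.31 to 0.49) and DDIT3 (-0.34 to 0.07). Among genes called with the block, it turned sign for CCPG1 (-1.27 to 0.28, and 0.073), ASS1 (-2.13 to 0.78, and 0.089), DNAJC3 (-1.49 to 0.15), HERPUD1 (-1.29 to 0.20, and 0.013), MCL1 (-1.33 to 0.25), PDIA4 (-1.89 to 0.19) and SLC7A11 (-2.54 to 0.41), and the line difference of PRKCA ranged from -0.90 to 2.31, and was -0.116 without the KMS18 knockdown. JUNB ranged from -1.19 to -0.058 and MTHFD2 from -1.23 to -0.14. The line calls of DNAJC3 and EIF2B4 were lost without the KMS18 knockdown (edgeR adjusted p = 0.0632 and 0.0947), and that of EIF2B4 without the KMS28BM control (0.0779). DESeq2 also called for the knockdown 3 of the 15 genes for eIF2, eIF2B and phosphatases (1 higher, 2 lower) and 1 tRNA synthetase gene, AARS (lower), where edgeR called 0. Over all genes DESeq2 called 466 higher and 847 lower. With at least 5 CPM in 2 libraries, edgeR called SGK1 and RRM2B as higher among the glucocorticoid and p53 targets, beside the 2 that fell. Over all genes that setting called 623 higher and 719 lower. In the fits with a library left out and no block, the line difference enters the knockdown difference by construction. The members higher in the KMS28BM knockdown and lower in the KMS18 knockdown numbered 7 or 8 under each scale tried. With 1 library per line and construct, the spread between cultures is unknown.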
